A study of Rattus norvegicus and Mus musculus with 24 samples.

Results

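The 10 genes described here are those by which injured kidney tubules are commonly recognised, together with the fibrinogen chains: HAVCR1 (the gene of KIM-1), LCN2 (NGAL), CLU (clusterin), VCAM1, CD44, ITGB6, FGA, FGB, FGG and DCDC2. They were chosen by name, as the rows of the deposited tables whose human gene symbol equals 1 of these 10, and all 10 were found among the 17376 symbols of the mouse table and the 14931 symbols of the rat table. Bulk RNA sequencing had been carried out on kidney of 8 mice (4 Ctns KO, 4 WT) and 16 rats (8 Ctns KO, 8 WT), with 1 library per animal. Ctns encodes cystinosin, the transporter that carries cystine out of lysosomes, and its loss causes cystinosis, a lysosomal storage disease that first strikes the proximal tubule. The mice were C57BL/6 and the rats Sprague-Dawley, each a knockout line set against control littermates. Per the study's methods, animals were matched by age and sex and the mice were female. The ages and any treatment of these animals, and the sex of the rats, were not given in the sources used here. The labels name the tissue as kidney cortex and the cell type as proximal tubule cells, and their extraction text speaks of microdissected proximal tubules. The rats carry the numbers 17 to 24 and 25 to 32, with 4 KO and 4 WT animals in each range, and what the ranges stand for is not given in the sources used here.

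A proximal tubule cell that is damaged loses its differentiated state and switches on a set of genes that the resting cell barely uses. KIM-1 appears on the luminal surface, where it takes up dead cells and debris, and NGAL, a small protein that binds iron-carrying siderophores, is released into urine. VCAM1, CD44 and the ITGB6 chain of the alpha v beta 6 integrin are adhesion proteins of epithelium that repairs or fails to repair, and clusterin is a secreted chaperone. Fibrinogen, the clotting precursor made of the FGA, FGB and FGG chains, comes mainly from the liver, but injured kidney epithelium makes its chains too. DCDC2 is a doublecortin-domain protein of the primary cilium.

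Library depth lay between 19309449 and 44449859 reads in the mice and between 24684097 and 40629873 reads in the rats. Rat levels are given as CPM, a gene's reads for every 1000000 reads of its library. Mouse levels are given as deposited, as scaled values in which the 75th percentile of a library's genes is about 1. Of the targeted gene, the mice had scaled CTNS values of 0.332 ± 0.0102 in KO and 0.918 ± 0.0869 in WT (SD, n = 4 each), with no overlap. In the rats the CTNS levels overlapped, at 19.8 ± 2.2 CPM in KO and 21.6 ± 2.49 CPM in WT (SD, n = 8 each), so that the level of this gene does not check the labels of single rats. HAVCR1 carries a limit of its own. Its mouse values are multiples of 0.25 reads and its rat values were whole reads in 0 of 16 animals, whereas those of the other 9 genes were whole in all animals, so that several rodent genes may stand under this human symbol and its fold changes are those of the deposited value.

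Across all rats, 9 of the 10 genes rose in KO and none fell by the quasi-likelihood test of edgeR (adjusted p under the threshold of 0.05, Benjamini-Hochberg over all symbols), where 15.2% of the 11584 symbols tested rose and 12.3% fell. ITGB6 was the exception. The KO and WT values of 8 genes did not overlap, against 6.16% of all symbols. The median log2 fold change of the 10 was 1.32, against -0.02 over all symbols tested. All 10 passed the filter on low counts, though FGG had few WT reads and could pass it through the KO group alone. Without that filter the count of genes called was 9 as well (edgeR). In the mice, 3 of the 10 rose (VCAM1, CD44 and LCN2) and none fell by limma on log2(scaled value + 1), where 3.5% of the 17376 symbols rose and 0.817% fell, and 4 did not overlap (the same 3 and DCDC2), against 11.6% of all symbols. The median log2 difference of the 10 in mice was 0.09, against 0.00 over all symbols. It was taken on log2(scaled value + 1), which understates the change of low genes, and cannot be set beside the rat median. Because these are bulk samples, more cells of a type and more RNA per cell cannot be told apart in any of these results.

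The rats of the 2 number ranges differed in how far the genes moved. In rats 17 to 24, 7 of the 10 rose (HAVCR1, LCN2, VCAM1, CLU, CD44, FGB and DCDC2) and none fell, where 5.07% of 11610 symbols rose and 2.19% fell, and 8 did not overlap, against 12.9%. In rats 25 to 32, 9 rose and ITGB6 fell, where 21.8% of 11633 symbols rose and 22.1% fell, and 9 did not overlap, against 44% of all symbols, so that separation of the groups was common in that range. The change in KO differed between the ranges for 7 of the 10 genes by the interaction test in edgeR, all 7 larger in rats 25 to 32, against 14.7% of 11839 symbols in either direction. Those 7 were LCN2, CLU, CD44, FGA, FGB, FGG and DCDC2. HAVCR1, VCAM1 and ITGB6 did not pass that test. Between the species the change in KO differed for 3 of the 10 (HAVCR1, FGB and VCAM1) by limma's interaction test, against 4.02% of 14264 symbols in either direction. That test pooled the rats of both ranges without a term for range. A gene that did not pass it is therefore not shown to change alike in the species.

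**Figure D1:**
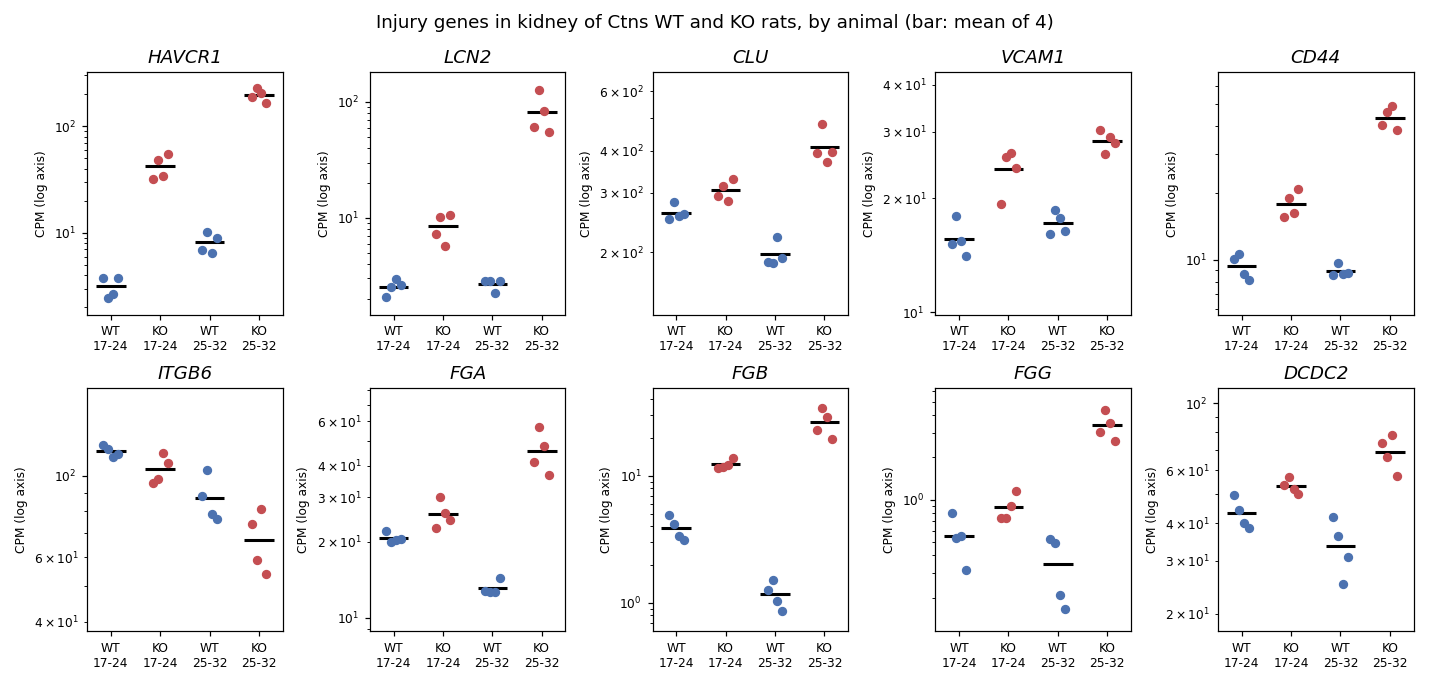
Level of each of the 10 genes in each rat, in CPM on a log axis, for WT (blue) and KO (red) animals of both number ranges, with a bar at the mean of 4. HAVCR1, LCN2 and FGB show the widest gaps between KO and WT in rats 25 to 32, and ITGB6 is the only gene whose KO mean lies below its WT mean in both ranges.

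HAVCR1 was the gene with the largest fold change of the 10 over all rats. In rats 17 to 24 it stood at 3.76, 2.43, 2.67 and 3.74 CPM in WT and at 31.8, 48, 33.9 and 55 CPM in KO. In rats 25 to 32 it stood at 6.87, 10.3, 6.52 and 9 CPM in WT and at 188, 227, 203 and 166 CPM in KO. Every KO rat was above every WT rat, by a ratio of means of 13.4 in the lower range and 24 in the higher. The log2 fold change was 4.27 ± 0.51 (SE) over all rats (adjusted p = 2.12e-05, edgeR), 3.73 ± 0.24 in rats 17 to 24 (adjusted p = 6.65e-05) and 4.41 ± 0.15 in rats 25 to 32 (adjusted p = 5.47e-08). The difference of 0.69 ± 0.28 between the ranges did not pass the test (adjusted p = 0.105, edgeR) but did by DESeq2 (adjusted p = 0.0476), and WT and KO rats alike had higher levels in the higher range.

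The mice gave no such result for HAVCR1. The scaled values were 0.289, 0.335, 0.339 and 0.354 in KO and 0.358, 0.192, 0.488 and 0.505 in WT, so that the KO values fell inside the WT range, and the log2 difference was -0.05 ± 0.07 (SE, adjusted p = 0.81, limma). The KO change differed between the species by 1.51 ± 0.40 on the log2(scaled value + 1) scale (adjusted p = 0.0338, limma). Mouse Havcr1 lies at chr11:46735080-46779578 on the + strand (mm10).

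LCN2 was the gene with the largest fold change in rats 25 to 32. In WT rats it was steady across the ranges, at 2.08, 2.53, 2.95 and 2.61 CPM in rats 17 to 24 and at 2.84, 2.86, 2.25 and 2.87 CPM in rats 25 to 32. In KO it stood at 7.22, 10.3, 5.69 and 10.6 CPM in the lower range and at 60.2, 127, 83.1 and 55.1 CPM in the higher. The lowest KO rat was therefore above the highest WT rat in each range, and the 2 sets of KO rats did not overlap. The log2 fold change was 1.71 ± 0.20 (SE) in rats 17 to 24 (adjusted p = 0.000323) and 4.74 ± 0.27 in rats 25 to 32 (adjusted p = 1.12e-06), and the difference of 3.04 ± 0.38 passed the interaction test (adjusted p = 0.000217, edgeR). Over all rats it was 3.99 ± 0.62 (adjusted p = 0.00021, edgeR).

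In mice LCN2 was low, with 62, 157, 177 and 192 reads in the KO libraries and 81, 15, 51 and 77 reads in the WT libraries. Scaled, these were 0.0653, 0.121, 0.112 and 0.115 in KO and 0.0518, 0.017, 0.0353 and 0.0372 in WT, without overlap and with a ratio of means of 2.92. The log2 difference on the scaled values was 0.09 ± 0.02 (SE, adjusted p = 0.0393, limma), a scale that understates the change of low genes, and 1.50 ± 0.27 by edgeR on reads recovered from the same table (adjusted p = 0.00481). The limma call was lost in 7 of 8 fits that left out 1 mouse, with adjusted p of up to 0.107 (limma). NGAL is also a granule protein of neutrophils. In rats 17 to 24 the summed level of 8 neutrophil markers was 1.7 to 2.7 CPM in KO and 1.0 to 2.4 CPM in WT. In rats 25 to 32 it was 2.5 to 3.2 CPM in KO and 1.4 to 1.9 CPM in WT, without overlap. Of these markers 2 passed the filter in rats 25 to 32, where 21.8% of all symbols rose. Of the 2, 1 rose there, CSF3R (0.78 ± 0.22, SE, adjusted p = 0.0143, edgeR). Their part in the LCN2 result was not tested. In mice the same sum was between 1.6 and 2.6 CPM in KO and between 1.6 and 2.4 CPM in WT.

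CLU was the most abundant of the 10 genes. Per kilobase of exon, a scale on which genes can be compared within the mouse, its level in WT mice was 177 ± 44 CPM per kb (SD, n = 4), ahead of ITGB6 at 10.8 ± 1.59, FGA at 9.91 ± 2.09, HAVCR1 at 7.86 ± 3 and FGG at 6.6 ± 2.07 CPM per kb. In that order, neighbours from ITGB6 to FGG did not differ beyond their spread. The HAVCR1 value was divided by the exon length of mouse Havcr1 alone. Because several genes may stand under that symbol, its place in the order is uncertain. VCAM1 (1.84 ± 0.29), FGB (1.83 ± 0.37) and DCDC2 (1.52 ± 0.174 CPM per kb) followed at nearly equal levels, and LCN2 (0.629 ± 0.262) and CD44 (0.45 ± 0.0938 CPM per kb) were the lowest.

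In the rats CLU rose in both ranges, by little in the lower. It ranged from 250 to 281 CPM in WT and from 285 to 329 CPM in KO in rats 17 to 24, and from 186 to 222 CPM in WT and from 370 to 479 CPM in KO in rats 25 to 32. The log2 fold changes were 0.21 ± 0.05 (SE, adjusted p = 0.0352) and 0.89 ± 0.10 (adjusted p = 6.13e-05, edgeR), and the difference of 0.69 ± 0.12 passed the interaction test (adjusted p = 0.0014). The call in the lower range was lost in 6 of 8 fits without 1 rat, with adjusted p of up to 0.126 (edgeR). In mice the scaled values were 15.6, 19.4, 21.1 and 16.5 in KO and 15, 16.6, 9.96 and 10.4 in WT. These overlapped, and the log2 difference of 0.48 ± 0.18 did not pass the test (adjusted p = 0.224, limma).

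VCAM1, the endothelial and epithelial ligand of the alpha 4 beta 1 integrin of leukocytes, was the gene of the 10 with the clearest separation in mice. The scaled values were 0.925, 0.952, 0.921 and 0.904 in KO and 0.298, 0.397, 0.296 and 0.4 in WT. The KO mice lay close together and all stood above the WT mice, by a ratio of means of 2.66. The log2 difference was 0.52 ± 0.03 (SE, adjusted p = 0.000898, limma) and 1.40 ± 0.10 by edgeR on recovered reads (adjusted p = 2.71e-06).

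The rats had the same direction for VCAM1 with a smaller change. Rats 17 to 24 had 15.2, 18, 15.4 and 14.1 CPM in WT and 19.3, 25.7, 26.4 and 24.1 CPM in KO. Rats 25 to 32 had 16.1, 18.7, 17.7 and 16.4 CPM in WT and 30.2, 26.3, 29 and 28 CPM in KO. The groups did not overlap in either range, and the log2 fold changes were 0.59 ± 0.09 (SE, adjusted p = 0.00233) and 0.56 ± 0.08 (adjusted p = 0.000272, edgeR). The difference between the ranges was -0.03 ± 0.12 (adjusted p = 0.885, edgeR). The change was smaller in rats than in mice by 0.33 ± 0.05 on the log2(scaled value + 1) scale (difference -0.33, adjusted p = 8.64e-05, limma). In rats 25 to 32, VCAM1 was the rising gene of the 10 with the smallest log2 fold change.

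CD44, the receptor of the matrix polymer hyaluronan, rose in both species. In rats 17 to 24 it ranged from 8.11 to 10.7 CPM in WT and from 15.6 to 20.8 CPM in KO, and in rats 25 to 32 from 8.58 to 9.67 CPM in WT and from 38.4 to 48.8 CPM in KO. WT levels were alike between the ranges while the KO levels of the higher range stood apart from those of the lower. The log2 fold changes were 0.92 ± 0.11 (SE, adjusted p = 0.000292) and 2.12 ± 0.09 (adjusted p = 1.49e-07), with a difference of 1.20 ± 0.14 (adjusted p = 8.45e-05, edgeR). In mice the scaled values were 0.139, 0.133, 0.114 and 0.135 in KO and 0.0581, 0.0564, 0.0607 and 0.0853 in WT. They did not overlap, and the log2 difference was 0.09 ± 0.01 (SE, adjusted p = 0.0098, limma) or 0.97 ± 0.15 by edgeR on recovered reads (adjusted p = 0.00125). The change in CD44 did not pass the test of a difference between the species, which pooled both ranges of rats (0.35 ± 0.13, adjusted p = 0.148, limma).

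ITGB6, the epithelial integrin chain that activates latent TGF-beta, went the other way in rats. It ranged from 113 to 121 CPM in WT and from 95.4 to 115 CPM in KO in rats 17 to 24, and from 76.2 to 104 CPM in WT and from 54 to 81.3 CPM in KO in rats 25 to 32. The groups overlapped in each range. The log2 fold change was -0.33 ± 0.14 over all rats (SE, adjusted p = 0.089), -0.18 ± 0.06 in the lower range (adjusted p = 0.121) and -0.53 ± 0.12 in the higher, where the gene fell (adjusted p = 0.00582, edgeR). When the fit over all rats took the range into account, the fall was called there too (-0.36 ± 0.08, adjusted p = 0.00275, edgeR). In mice the scaled values were 1.71, 2.15, 2.4 and 2.19 in KO and 1.7, 1.41, 1.48 and 1.94 in WT, with a log2 difference of 0.24 ± 0.09 that did not pass the test (adjusted p = 0.197, limma).

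DCDC2, named Dcdc2a in the mouse, rose in the rats. It ranged from 38.5 to 49.4 CPM in WT and from 50 to 56.8 CPM in KO in rats 17 to 24, and from 25 to 41.9 CPM in WT and from 57.2 to 78.6 CPM in KO in rats 25 to 32, without overlap in either. The log2 fold changes were 0.29 ± 0.08 (SE, adjusted p = 0.0447) and 0.88 ± 0.14 (adjusted p = 0.000635), and they differed by 0.60 ± 0.17 (adjusted p = 0.0268, edgeR). The call in the lower range was lost in 7 of 8 fits without 1 rat, with adjusted p of up to 0.137. The call on the difference was lost without WT rat 17, KO rat 22 or KO rat 24 (adjusted p = 0.0587, 0.0533 and 0.0538, edgeR). In mice the scaled values were 0.331, 0.359, 0.431 and 0.349 in KO and 0.292, 0.239, 0.245 and 0.296 in WT. These did not overlap, with a log2 difference of 0.11 ± 0.03 that missed the threshold by limma (adjusted p = 0.0747) and passed it by edgeR on recovered reads (0.43 ± 0.11, adjusted p = 0.0215).

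**Figure D2:**
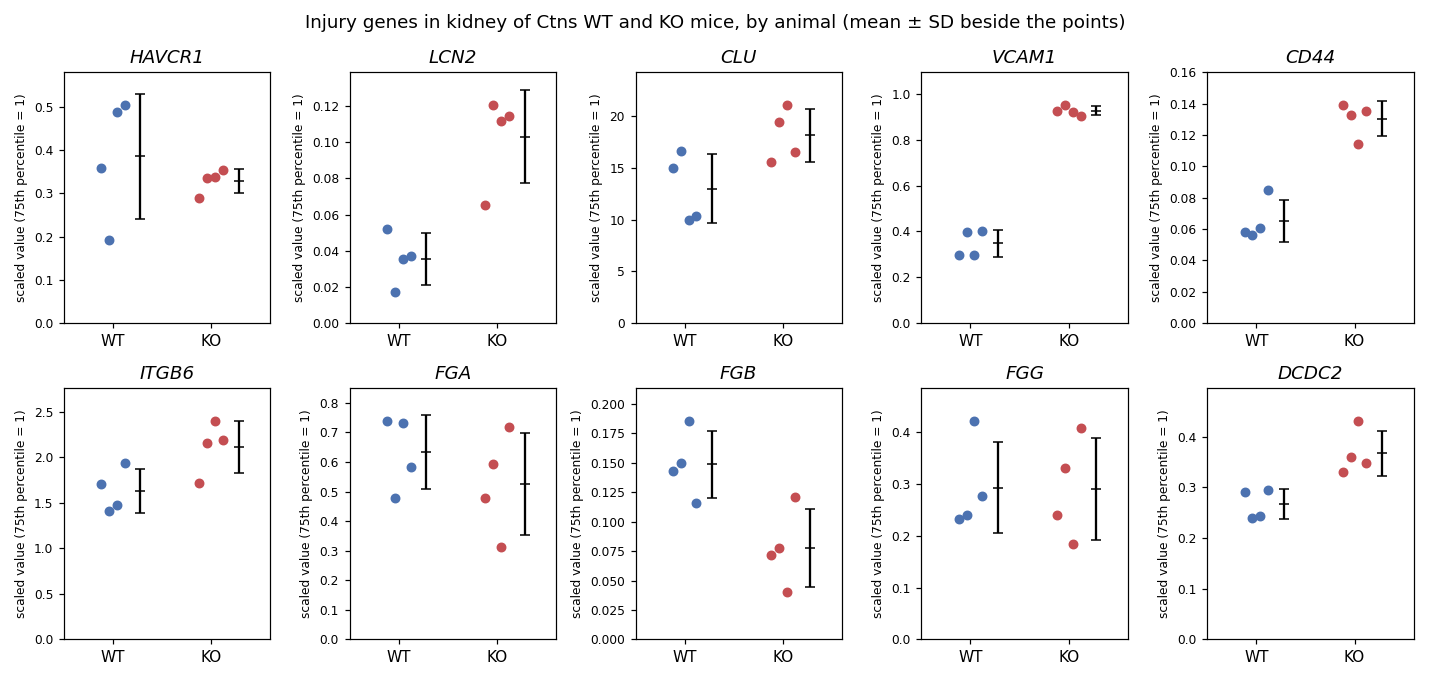
Scaled value of each of the 10 genes in each WT (blue) and KO (red) mouse, on a linear axis from 0, with the mean ± SD of 4 mice beside the points. VCAM1, CD44, LCN2 and DCDC2 do not overlap between the groups, and the other 6 genes do.

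The 3 fibrinogen chains lie next to each other in 1 gene cluster. In the mouse (mm10) Fgg is at chr3:83007724-83015049 and Fga at chr3:83026076-83033627, both on the + strand, and Fgb at chr3:83040141-83049863 on the - strand. The beta chain is the one whose synthesis is held to limit assembly of the secreted protein in liver cells, and interleukin-6 drives all 3 genes there through STAT3. The 250 bases before the rat starts of Fga and Fgb are shown because FGB rose in both ranges of rats and FGA by edgeR in rats 25 to 32 (RefSeq, GRCr8, Fga chr2:170671919-170672168, + strand, and Fgb chr2:170700876-170701125, - strand). Both windows end where the annotated gene begins. That of Fgg lies partly inside its annotated gene and is not shown. Capitals mark matches on either strand to either of 2 motifs, TTCNNNGAA (bound by STAT factors) and CTGGGAA (the core of the interleukin-6 response element of the fibrinogen genes). Of 33469 rat promoter windows of this length, 7.67% hold TTCNNNGAA and 9.56% CTGGGAA. Windows were available for 9 of the 10 genes, of which 4 hold TTCNNNGAA and 5 CTGGGAA, so that the motifs are not particular to the 2 genes shown. ITGB6, which fell in rats 25 to 32, holds TTCNNNGAA, and LCN2, VCAM1 and FGG hold CTGGGAA. DCDC2 holds both, and HAVCR1 and CD44, which rose, hold neither. The windows of HAVCR1, CD44, ITGB6 and DCDC2 lie wholly inside their annotated genes.

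Fga: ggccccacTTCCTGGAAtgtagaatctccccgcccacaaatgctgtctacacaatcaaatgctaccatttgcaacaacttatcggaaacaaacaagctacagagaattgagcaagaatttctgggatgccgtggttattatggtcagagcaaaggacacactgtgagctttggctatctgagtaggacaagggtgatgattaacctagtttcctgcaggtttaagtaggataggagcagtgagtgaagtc
Fgb: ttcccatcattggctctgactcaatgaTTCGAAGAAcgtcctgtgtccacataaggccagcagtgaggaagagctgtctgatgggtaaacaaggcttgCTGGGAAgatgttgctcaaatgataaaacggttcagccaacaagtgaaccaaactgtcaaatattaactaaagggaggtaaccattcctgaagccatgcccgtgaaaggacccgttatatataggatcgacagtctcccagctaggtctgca

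Fga holds 1 TTCNNNGAA match, 242 to 234 bases before the start. The table's other Fga entry, whose window begins further on, holds no match. Fgb holds 1 TTCNNNGAA match (223 to 215 bases before the start) and 1 CTGGGAA match (152 to 146 bases). A match is a description of the letters and not of a bound site.

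FGB moved most. In rats 17 to 24 it stood at 4.88, 4.15, 3.35 and 3.11 CPM in WT and at 11.6, 11.8, 12.1 and 13.9 CPM in KO. In rats 25 to 32 it stood at 1.26, 1.5, 1.04 and 0.857 CPM in WT and at 22.8, 34.4, 29.1 and 19.5 CPM in KO. WT levels were thus lower and KO levels higher in the higher range, with no overlap between any pair of the 4 groups. The log2 fold changes were 1.67 ± 0.14 (SE, adjusted p = 2.16e-05) and 4.32 ± 0.21 (adjusted p = 4.76e-07), with a difference of 2.66 ± 0.26 (adjusted p = 3.14e-05, edgeR). Over all rats the log2 fold change was 2.88 ± 0.35 (adjusted p = 2.27e-05, edgeR).

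FGA was the more abundant chain and moved less. In rats 17 to 24 it stood at 22.2, 19.9, 20.4 and 20.5 CPM in WT and at 22.7, 30.2, 26.1 and 24.3 CPM in KO, and in rats 25 to 32 at 12.7, 12.7, 12.7 and 14.4 CPM in WT and at 41.4, 57, 48.1 and 36.8 CPM in KO. The groups did not overlap in either range. The log2 fold change of 0.30 ± 0.09 in the lower range did not pass the test (SE, adjusted p = 0.0571) and that of 1.64 ± 0.13 in the higher did (adjusted p = 7.33e-06), with a difference of 1.35 ± 0.16 (adjusted p = 0.000111, edgeR). The lower range passed by DESeq2 (0.29, adjusted p = 0.0397) and in 2 of 8 edgeR fits without 1 rat (adjusted p from 0.0448).

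FGG was near the limit of what these depths measure. It had 20, 17, 18 and 10 reads in WT and 23, 21, 25 and 36 reads in KO in rats 17 to 24, and 15, 20, 6 and 5 reads in WT and 95, 124, 106 and 65 reads in KO in rats 25 to 32. The groups overlapped in CPM in the lower range (0.314 to 0.8 in WT, 0.738 to 1.16 in KO) and were far apart in the higher (0.165 to 0.525 in WT, 2.63 to 4.37 in KO). The log2 fold changes were 0.70 ± 0.30 (SE, adjusted p = 0.203) and 3.09 ± 0.31 (adjusted p = 3.93e-05), with a difference of 2.40 ± 0.45 (adjusted p = 0.00288, edgeR). With as few as 5 WT reads, FGG could pass the filter on low counts through the KO group alone. Without that filter all 10 genes, FGG among them, were still called in rats 25 to 32 (edgeR).

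In mice none of the chains passed the test as planned. FGB had scaled values of 0.0715, 0.0778, 0.04 and 0.121 in KO and 0.143, 0.15, 0.186 and 0.116 in WT, overlapping by 1 KO mouse, with a log2 difference of -0.09 ± 0.03 (SE, adjusted p = 0.108, limma). Limma with symbols of a mean value under 0.1 left out (adjusted p = 0.0374) and DESeq2 on the recovered reads (-0.95, adjusted p = 0.00429) put it past the threshold and edgeR on the same reads did not (-0.94 ± 0.30, adjusted p = 0.0894). FGA ranged from 0.314 to 0.719 in KO and from 0.477 to 0.739 in WT, with a log2 difference of -0.10 ± 0.09 (adjusted p = 0.672), and FGG from 0.184 to 0.408 in KO and from 0.232 to 0.422 in WT, with 0.00 ± 0.07 (adjusted p = 0.982, limma). The change of FGB differed between the species by 0.50 ± 0.09 on the log2(scaled value + 1) scale (adjusted p = 0.00258, limma), while those of FGA (0.45 ± 0.13, adjusted p = 0.053) and FGG (0.05 ± 0.05, adjusted p = 0.659, limma) did not pass that test. The log2 (value + 1) scale understates the change of low genes such as FGG. By edgeR on the reads of both species the differences were 3.84 ± 0.55 for FGB (SE, adjusted p = 0.000176), 1.30 ± 0.32 for FGA (adjusted p = 0.0301) and 2.21 ± 0.57 for FGG (adjusted p = 0.0358), all past the threshold. FGA also passed by limma with a pseudocount of 0.1 (adjusted p = 0.0422) and with symbols of a mean value under 0.1 left out (adjusted p = 0.0476).

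The balance of the chains, taken as a ratio of reads within each library, is free of library scaling. FGB reads over FGA reads were 0.186 ± 0.0333 in WT and 0.485 ± 0.0759 in KO in rats 17 to 24, and 0.0899 ± 0.0251 in WT and 0.573 ± 0.038 in KO in rats 25 to 32 (SD, n = 4 each). In mice they were 0.239 ± 0.0558 in WT and 0.144 ± 0.0189 in KO (SD, n = 4 each). The ratio thus rose in KO rats of both ranges and fell in KO mice, without overlap in any of the 3 sets. Each of the 3 had a two-sided exact permutation p of 0.0286 (n = 4 each), the smallest that 4 against 4 can give, and 0.0367 after adjustment over the 9 ratio tests. FGG reads over FGA reads rose in rats 25 to 32, from 0.027 ± 0.0153 to 0.0737 ± 0.00224 (SD, n = 4 each, exact permutation p = 0.0286, adjusted 0.0367). KO and WT overlapped, with the KO mean the higher, in rats 17 to 24 (0.0263 ± 0.00851 and 0.0348 ± 0.00951, exact permutation p = 0.286) and in mice (0.467 ± 0.111 in WT and 0.553 ± 0.0376 in KO, exact permutation p = 0.2, SD, n = 4 each), and whether the sets differ was not tested. FGG reads over FGB reads did not overlap in any of the 3 sets. They rose in KO mice from 1.98 ± 0.42 to 3.91 ± 0.641 and fell in KO rats, from 0.14 ± 0.0309 to 0.071 ± 0.00978 in rats 17 to 24 and from 0.284 ± 0.108 to 0.129 ± 0.00677 in rats 25 to 32 (SD, n = 4 each, exact permutation p = 0.0286 and adjusted 0.0367 in each).

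**Figure D3:**
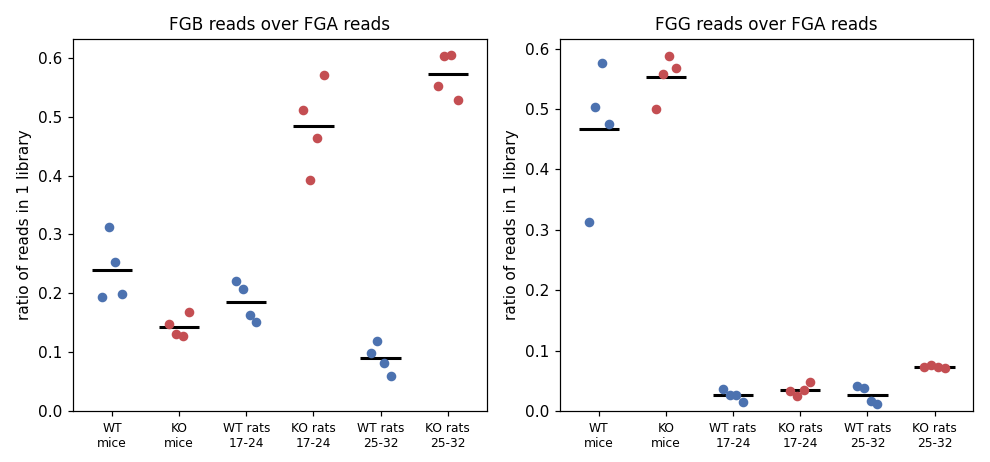
Ratio of FGB reads (left) and of FGG reads (right) to FGA reads in each library, for WT (blue) and KO (red) mice and rats of both number ranges, with a bar at the mean of 4. The left ratio is higher in KO than in WT rats and lower in KO than in WT mice, and the right ratio is lower in every rat than in any mouse.

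Since liver is the main source of fibrinogen, liver markers were read beside the chains. Albumin (ALB) had 0 to 6 reads in every rat library. Of the liver markers tested in all rats, TF, FETUB and F2 had mean log2 CPM of 6.18, 5.02 and 3.96. APOH and HPX had 0.48 and 0.13 (edgeR). The summed level of the list therefore rests mainly on TF, FETUB and F2. Whether liver RNA had a part in the fibrinogen results was not tested. The summed level of 11 liver markers was between 150.0 and 201.5 CPM in KO and between 109.1 and 126.7 CPM in WT in rats 25 to 32. Of the 6 that passed the filter there, 4 rose, where 21.8% of all symbols rose. In rats 17 to 24 the sums were between 94.4 and 110.3 CPM in KO and between 91.4 and 100.0 CPM in WT. There 0 of 5 passed the test, where 5.07% of all symbols rose and 2.19% fell. In mice the sums were between 74.6 and 110.3 CPM in KO and between 51.3 and 101.0 CPM in WT. Of these markers 0 of 11 passed the test in mice, where 3.5% of all symbols rose and 0.817% fell. Mouse ALB stood between 17.2 and 21.2 CPM in KO and between 12.4 and 32 CPM in WT.

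**Figure D4:**
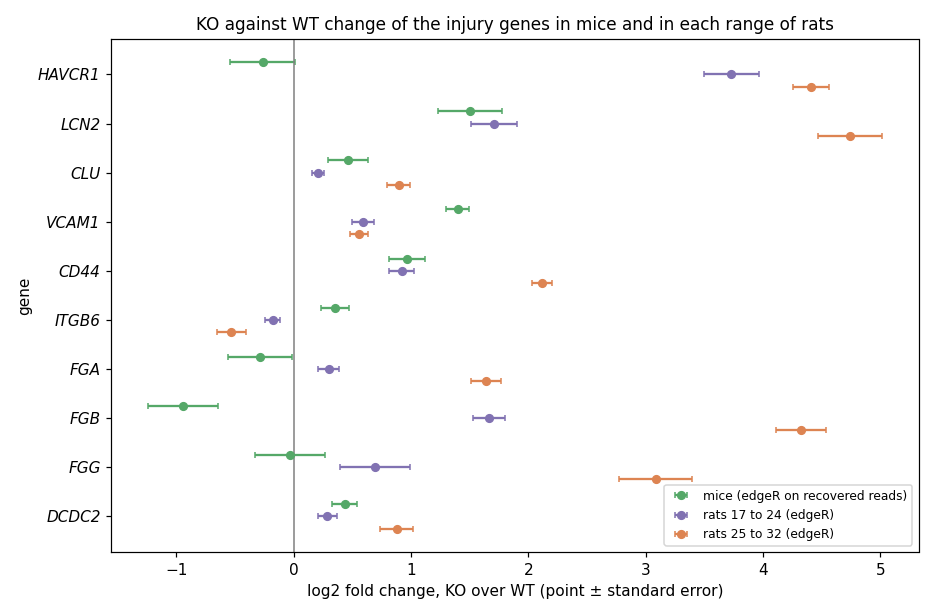
Log2 fold change of KO over WT (point) with its standard error (bar) for each of the 10 genes in mice (green, edgeR on recovered reads), rats 17 to 24 (purple) and rats 25 to 32 (orange). Mice and rats 17 to 24 lie close together for LCN2, CD44 and DCDC2, and VCAM1 is highest in mice. The points of HAVCR1 and the fibrinogen chains lie below 0 in mice and above 0 in both ranges of rats. None of these mouse points passed the test (adjusted p = 0.0894 for FGB and 0.61 to 0.97 for the others, edgeR). That of FGG is -0.03 ± 0.30 (SE).

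The libraries hold more than proximal tubule, and other cell types moved with genotype. The summed level of 11 macrophage markers was between 237.4 and 641.9 CPM in KO rats and between 140.8 and 244.3 CPM in WT rats, and 10 of the 11 rose, and in mice it was between 247.8 and 296.1 CPM in KO and between 160.2 and 165.7 CPM in WT, and 7 of 11 rose. Of the fibroblast and pericyte markers 6 of 7 rose in rats and 4 of 8 in mice, and of the lymphocyte markers 6 of 7 rose in rats and 0 of 10 passed the test in mice. Among all symbols 15.2% rose in rats and 3.5% in mice. Of the parietal epithelium markers 3 of 5 rose in mice, with sums between 228.9 and 258.5 CPM in KO and between 150.7 and 181.1 CPM in WT, and 2 of 5 rose in rats. Of the thick limb and distal nephron markers 4 of 9 rose and 2 fell in rats 25 to 32, with sums between 4863.6 and 5804.3 CPM in KO and between 3326.4 and 4073.6 CPM in WT, where 21.8% and 22.1% of all symbols rose and fell. The proximal tubule markers moved the other way, with 11 of 13 lower in KO rats (12.3% of all symbols) and 1 of 15 in KO mice (0.817%). The sum of these tubule markers was between 21260.5 and 27168.5 CPM in KO rats and between 28601.5 and 42406.0 CPM in WT rats. VCAM1, CD44 and CLU are made by several of these cell types, and the part of cell composition in the results was not tested.

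Other genes of tubular injury moved with the 10. Of a list of 48 such genes, 28 of the 42 tested rose in all rats and 0 fell, where 15.2% of all symbols rose and 12.3% fell, with a median log2 fold change of 0.61, against -0.02 over all symbols. In rats 17 to 24, 15 of 42 rose and 1 (KRT7) fell (5.07% and 2.19% of all symbols), with a median of 0.34, and in rats 25 to 32, 31 of 42 rose and 0 fell (21.8% and 22.1%), with a median of 0.94. In mice, 21 of 46 rose and 0 fell (3.5% and 0.817%). Between the ranges the KO change differed for 20 of 43, all larger in rats 25 to 32, against 14.7% of all symbols in either direction.

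SPP1, the secreted matrix protein osteopontin and a ligand of CD44 and integrins, had the lowest p of this list in rats. It ranged from 182 to 329 CPM in WT and from 848 to 1435 CPM in KO in rats 17 to 24, and from 162 to 188 CPM in WT and from 3216 to 5122 CPM in KO in rats 25 to 32, which gives log2 fold changes of 2.32 ± 0.23 (SE, adjusted p = 0.00139) and 4.38 ± 0.14 (adjusted p = 4.6e-08, edgeR). In mice its log2 difference was 1.03 ± 0.14 (adjusted p = 0.011, limma). Over all rats, MYC, a growth-promoting transcription factor, rose by 1.91 ± 0.20 (SE, adjusted p = 6.08e-06), HMOX1, the haem-degrading stress enzyme, by 1.63 ± 0.18 (adjusted p = 7.49e-06) and ATF3, a stress-response transcription factor, by 2.26 ± 0.28 (adjusted p = 2.93e-05, edgeR) on the log2 scale. These factors rose alongside HAVCR1 and LCN2 in each range of rats.

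In mice the list was led by GDF15, a stress cytokine, CDKN1A, the cell cycle inhibitor p21, LIF, a cytokine of the interleukin-6 family, and SOX4, a transcription factor of repairing epithelium. By edgeR on the recovered reads their log2 fold changes were 2.55 ± 0.15 for GDF15 (SE, adjusted p = 4.26e-07), 2.86 ± 0.19 for CDKN1A (adjusted p = 4.66e-05), 2.76 ± 0.24 for LIF (adjusted p = 1.41e-05) and 0.73 ± 0.08 for SOX4 (adjusted p = 5.74e-05). All 4 also passed by limma on the scaled values. In rats GDF15 (1.82 ± 0.25), CDKN1A (3.24 ± 0.41) and LIF (1.92 ± 0.28) rose as well over all rats (adjusted p between 3.59e-05 and 0.000115, edgeR). SOX4 was tested in mice alone.

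**Figure D5:**
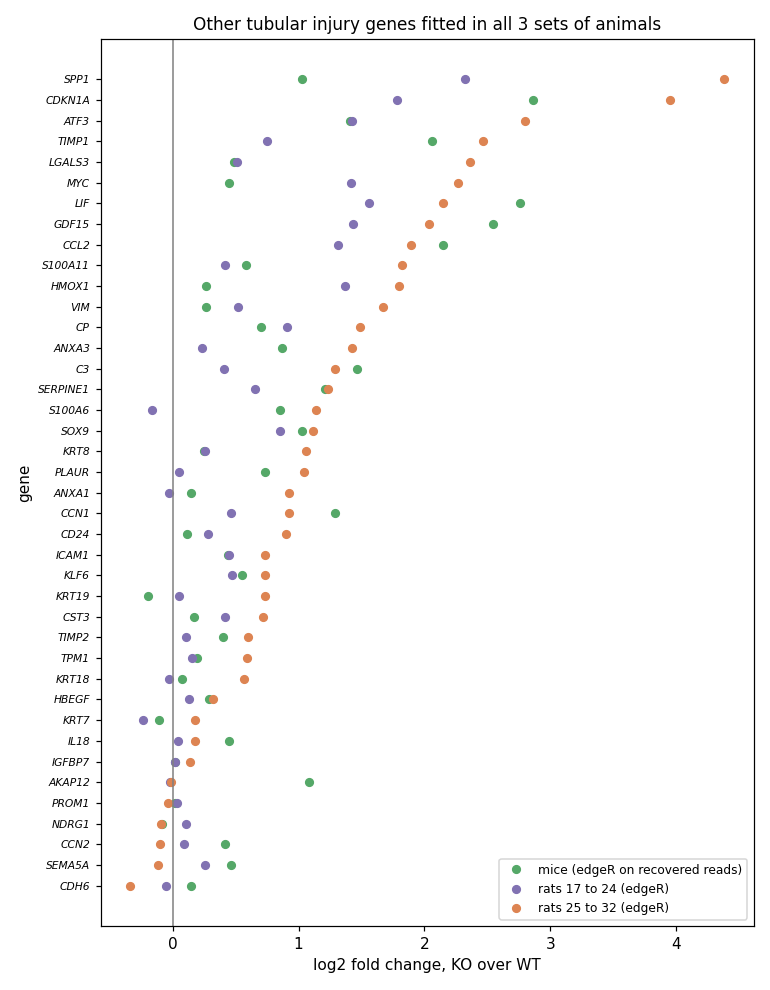
Log2 fold change of KO over WT for the 40 genes of the wider injury list that were fitted in mice (green), rats 17 to 24 (purple) and rats 25 to 32 (orange), ordered by the value in rats 25 to 32. SPP1 and CDKN1A have the largest values in rats 25 to 32, and the rats 17 to 24 lie below them for most genes.

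A list of 68 receptors, partners and regulators of the 10 genes was read in the same way. In all rats 21 of 49 rose and 4 fell (15.2% and 12.3% of all symbols), with a median log2 fold change of 0.34. It was 10 and 2 of 50 in rats 17 to 24 (5.07% and 2.19%), and in rats 25 to 32 it was 23 and 6 of 50 (21.8% and 22.1%). In mice 12 of 68 rose and 0 fell (3.5% and 0.817%). Of the receptors and partners, SLC22A17, a receptor of NGAL, did not pass the test in rats (-0.05 ± 0.06, SE, adjusted p = 0.596, edgeR) or in mice (-0.05 ± 0.05, adjusted p = 0.646, limma). LRP2 (megalin), which takes NGAL back up in the proximal tubule, stood at 3905 ± 390 CPM in KO mice and 4295 ± 296 CPM in WT mice (SD, n = 4 each), which did not pass the test either (adjusted p = 0.277, limma). ITGA4, the leukocyte chain that binds VCAM1, had a log2 fold change of 0.63 ± 0.25 over all rats that missed the threshold (adjusted p = 0.0697, edgeR) and of 0.01 ± 0.02 in mice (adjusted p = 0.804, limma). ITGAV, the partner chain of ITGB6, was tested in mice alone, with 0.12 ± 0.06 (adjusted p = 0.353, limma). HAVCR2, the immune-cell relative of HAVCR1, rose by 1.65 ± 0.31 on the log2 scale in rats (adjusted p = 0.000903, edgeR). In mice it rose by 0.91 ± 0.23 by edgeR on the recovered reads (adjusted p = 0.0221). On log2(scaled value + 1), which understates the change of low genes, it rose by 0.04 ± 0.01 (adjusted p = 0.0369, limma). The limma call was lost in 6 of 8 fits without 1 mouse (adjusted p of up to 0.1).

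Of the regulators, OSMR, STAT3 and SOCS3 had the lowest p among those that rose in rats. OSMR, the receptor chain of oncostatin M, had 3.84 to 5.31 CPM in WT and 9.14 to 12.1 CPM in KO in rats 17 to 24 and 3.33 to 5.39 CPM in WT and 7.9 to 15.5 CPM in KO in rats 25 to 32, and rose by 1.19 ± 0.12 over all rats (log2, SE, adjusted p = 4.53e-06). SOCS3, a target and inhibitor of STAT3, rose by 0.96 ± 0.21 in the lower range (adjusted p = 0.0149) and by 2.43 ± 0.27 in the higher (adjusted p = 6.71e-05), and STAT3 itself by 0.35 ± 0.06 (adjusted p = 0.00475) and 0.64 ± 0.08 (adjusted p = 0.000193, edgeR). The change of SOCS3 differed between the ranges (1.47 ± 0.36, adjusted p = 0.0136) and those of STAT3 (0.29 ± 0.10, adjusted p = 0.0679) and OSMR (0.21 ± 0.24, adjusted p = 0.57, edgeR) did not pass. IL6 itself had 0 to 6 reads in WT rats and 2 to 13 reads in KO rats. It passed the filter on low counts in rats 25 to 32 but not in rats 17 to 24 or in all rats together. With so few WT reads it could pass that filter through the KO group alone. Its log2 fold change there (2.34 ± 0.52, SE, edgeR) is therefore given as a description and not as a test result.

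In mice SOCS3 and OSMR rose while no fibrinogen chain passed the test. On log2(scaled value + 1), SOCS3 rose by 0.10 ± 0.01 (SE, adjusted p = 0.00894) and OSMR by 0.18 ± 0.02 (adjusted p = 0.011), and STAT3 had 0.26 ± 0.07 (adjusted p = 0.0824, limma). That scale is not the one of the rat values. By edgeR on the recovered reads SOCS3 rose by 1.08 ± 0.16 (adjusted p = 0.000938) and OSMR by 0.66 ± 0.10 (adjusted p = 0.00102). STAT3 passed by edgeR on the recovered reads (0.34 ± 0.08, adjusted p = 0.0237), by DESeq2 (adjusted p = 0.0061) and by limma with low symbols left out (adjusted p = 0.0232). IL6 had 0 to 3 reads in every mouse. FN1, the matrix protein fibronectin, rose by 0.45 ± 0.08 (adjusted p = 0.0249, limma), a call lost in 4 of 8 fits without 1 mouse (adjusted p of up to 0.0753). It also passed by edgeR on the recovered reads (0.83 ± 0.15, adjusted p = 0.00919). DCLK1, a doublecortin relative of DCDC2, rose by 0.01 ± 0.00 (adjusted p = 0.0237, limma), a call lost in 6 of 8 such fits (adjusted p of up to 0.0631) and not made by edgeR on the recovered reads (0.93 ± 0.28, adjusted p = 0.055).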

How the data were processed

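Bulk RNA sequencing libraries of kidney from 8 mice and 16 rats, 1 per animal, were analysed by genotype as the labels give it. Per the labels, reads were processed with bcl2fastq 2.20, STAR 2.7.3, DESeq2 1.24.0 and R 3.6.1 on builds mm10 and rn5. The counting and annotation are not given in the sources used here. The authors deposited for the mouse a scaled signal per human gene symbol, which the values show to be reads plus 0.5 over the library's 75th percentile plus 0.5, and for the rat estimated counts with 1/6 added. Of the values, 98.99% in mouse and 97.72% in rat gave whole reads within 0.01. Rat counts were rounded.

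Mouse values were tested with limma 3.58.1 (trend, robust) on log2(value + 1) without a filter. Rat counts, and mouse reads as an alternative, were tested with edgeR 4.0.16 (quasi-likelihood, TMM, filter on low counts) in R 4.3.3. The ranges were fitted separately and their difference as an interaction over all rats. The species difference was fitted with limma over 14264 shared symbols, with both ranges of rats pooled. P-values were adjusted by Benjamini-Hochberg over all symbols (threshold 0.05). Standard errors of edgeR are the log2 fold change over the square root of F. The scripts were tested on simulated data with known changes. Depth covers counting error of single genes, and group differences are limited by how many animals there were. Alternatives were other pseudocounts, filters, size factors, DESeq2 1.42.0, limma-voom, the number range as covariate and leaving out each animal.

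All 10 genes are named. From the wider injury list and the list of partners and regulators, the 4 with the lowest p in each species are named, with 8 partners chosen by name. Of the genes named by this rule, 1 is not reported here. KRT7, ALB and CSF3R were named after their values were seen. The genes and lists were chosen with earlier results of these data known.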

Additional observations from a re-analysis of the deposited data

Results flagged for a closer look

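In groups of 4 to 10 animals the highest or the lowest value was set against the spread of the others by Dixon's test, for each of the 10 genes in each group and, in rats, in each range. It stood apart in 5 of 80 groups, and chance flags about 1 in 20. KO mouse 3 was low in LCN2, at 0.0653 (scaled value), and WT mouse 7 was high in CD44, at 0.0853. WT rat 29 was low in LCN2, at 2.25 CPM, and high in CLU, at 222 CPM, within rats 25 to 32. WT rat 31 was high in FGA, at 14.4 CPM, in the same range.

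The change in KO differed between the 2 ranges of rats, by edgeR's interaction test, for LCN2 (3.04 on the log2 scale), FGB (2.66), FGG (2.40), FGA (1.35), CD44 (1.20), CLU (0.69) and DCDC2 (0.60), each larger in rats 25 to 32. It differed between the species, by limma's interaction test on scaled values, for HAVCR1 (1.51) and FGB (0.50), which changed more in rats, and for VCAM1 (-0.33), which changed more in mice. What the number ranges stand for is not given, and species cannot be told apart from whatever else differed between the mouse and rat libraries.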

How the results depend on the processing

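The count of the 10 genes called stayed within 1.5 times its value under every alternative except 2. DESeq2 on recovered reads called 7 genes in mice (6 higher, 1 lower) in place of 3, and edgeR on reads called 5 in the species comparison in place of 3. Leaving out low symbols in mice kept the count at 3 but with 2 higher and 1 lower: LCN2 and CD44 were no longer tested, DCDC2 entered and FGB was called lower. Over all mouse symbols limma called 751, edgeR on recovered reads 1198 and DESeq2 1520. Leaving out 1 animal at a time gave 2 to 3 genes in mice, 9 to 10 in all rats, 5 to 7 in rats 17 to 24, 10 in rats 25 to 32, 6 to 8 for the difference between ranges and 2 to 4 for that between species. Without 1 animal the sign turned for FGG in mice (-0.0464 to 0.043 on the log2 scale), for IL6 (-9e-04 to 4e-04) and ITGA4 (-8e-04 to 0.0242) in mice, for VCAM1 between ranges (-0.108 to 0.0204) and for CLU between species (-0.0992 to 0.129), none of them past the threshold. HAVCR1 lost its species call in 7 fits without 1 mouse (adjusted p 0.0509 to 0.0642, limma). No paired analysis was possible because each animal has a number of its own and no groups share one. Depth limits FGG in rats and LCN2 in mice most, with as few as 5 and 15 reads in a library. The cause of these changes was not tested.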

Other observations

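WT rats of the 2 ranges differed in several of the 10 genes, given here as values with no test. FGB was higher in WT rats 17 to 24 than in WT rats 25 to 32 (3.87 ± 0.806 against 1.17 ± 0.279 CPM, SD, n = 4 each), as were FGA (20.8 ± 0.964 against 13.1 ± 0.846 CPM), CLU (261 ± 13.8 against 197 ± 16.9 CPM) and ITGB6 (117 ± 3.89 against 86.7 ± 12.4 CPM), without overlap. HAVCR1 went the other way (3.15 ± 0.698 against 8.17 ± 1.79 CPM), also without overlap. LCN2 (2.54 ± 0.357 against 2.7 ± 0.301 CPM), CD44 (9.37 ± 1.21 against 8.92 ± 0.506 CPM), VCAM1 (15.7 ± 1.64 against 17.2 ± 1.19 CPM), DCDC2 (43.1 ± 4.9 against 33.5 ± 7.25 CPM) and FGG (0.549 ± 0.199 against 0.348 ± 0.188 CPM) overlapped.

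Within the 16 rats, after the mean of each genotype and range was taken off, the genes whose log2 level was most like that of FGB among 10826 symbols were PF4V1 (Pearson's r = 0.92), UGCG (0.92) and HMGN5 (0.87), and FGG had 0.85 with 4 symbols above it. For VCAM1 they were FBLN5 (0.92), INKA1 (0.89) and AOX1 (0.87), for LCN2 ITPKA (0.87), RPP21 (0.86) and SLC35C1 (0.86), and for HAVCR1 DHX16 (0.82), SDCBP (0.82) and IRAK1BP1 (0.81). These values describe 16 points that share libraries and depth, and the highest of so many symbols are high by selection.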
